A study of Sus scrofa with 9 samples.

Results

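The comparison described here is of embryonic back muscle between 2 indigenous Chinese pig breeds, the Tibetan pig and the Wujin pig. It takes 6 of the 9 libraries of the series, 3 labelled Tibetan (1, 2 and 3) and 3 labelled Wujin (1, a and b), chosen by breed label alone. The tissue of all 6 is the longissimus dorsi, the long muscle along the spine, with no treatment labelled, at a stage given only as embryonic. Because no gestational day is given, a difference in age between the Tibetan and Wujin samples and a difference between the breeds cannot be told apart. The other 3 libraries, from the introduced Large White breed, added to the shared spread of the fit. They also entered the choice of entries and the scaling factors used below. The table holds 19643 entries, of which 13106 averaged 1 FPKM or more across the 9 libraries and entered the test. FPKM is a fragment count scaled by transcript length and library size, and the fragments counted for an entry are not given. Relative depth was read from the most frequent ratio between libraries among low entries, which a minority of them shared. Against Tibetan 1 it was 0.827 for Tibetan 2, 0.828 for Tibetan 3, 0.817 for Wujin 1, 0.885 for Wujin a and 0.929 for Wujin b. The labels do not say whether libraries of 1 breed stem from different animals, so p-values measure only the spread between libraries, which may be technical.

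Fetal muscle fibres form by fusion of myoblasts, and as they mature they exchange embryonic and cardiac-type forms of myosin, actin and troponin for adult forms. At the same time the fibres build up glycolytic enzymes, mitochondria and calcium-handling membranes, while dividing progenitors and the loose connective tissue around them recede. The genes of these programmes are taken up below in that order.

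All values are given library by library in the order Tibetan 1, 2 and 3, then Wujin 1, a and b. Within a breed, log2(FPKM + 1) values correlated across the 13106 tested entries at r = 0.958 to 0.965 among the Tibetan and 0.940 to 0.966 among the Wujin libraries, and between breeds at 0.749 to 0.785. These are correlations across genes, which are not independent replicates. The deposited totals were 615634, 590532 and 677783 FPKM for Tibetan and 505042, 541368 and 550483 for Wujin. The 10 highest entries of each library took 32.6% to 40.8% of a Tibetan total and 22.3% to 22.8% of a Wujin total. The median tested entry stood at 3.61, 3.15 and 3.51 FPKM in Tibetan and at 4.84, 6.21 and 6.27 FPKM in Wujin libraries.

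A few very abundant transcripts can lower all other FPKM of a library, so each result is given on the deposited FPKM and on FPKM divided by median-ratio factors, which set the typical entry equal between libraries. These factors were 0.710, 0.624 and 0.686 for Tibetan and 0.981, 1.19 and 1.22 for Wujin. On the deposited FPKM, 1809 entries (13.8% of those tested) were called higher in Tibetan and 7062 (53.9%) lower, at a limma adjusted p under 0.05. Under median-ratio scaling 4052 (30.9%) were called higher and 3978 (30.4%) lower. The median log2 change over all tested entries was -0.55 on the deposited scale and -0.00 under median-ratio scaling. Every one of the 1809 deposited higher calls was also higher under median-ratio scaling, and every one of the 3978 median-ratio lower calls was also lower on the deposited scale. A further 57 entries were called lower on the deposited scale and higher under median-ratio scaling, and none turned the other way. Every Tibetan factor lies below every Wujin factor, so scaling raises Tibetan relative to Wujin values. The nesting of the calls largely follows from this, and agreement of the scales is no separate check of a call. Counts for gene lists below are to be read beside the shares of all tested entries given here. List counts and summed shares cover only members matched by symbol, for example 9 of 18 fast-fibre and 20 of 55 ribosomal protein genes. In 67.7% of tested entries the 3 Tibetan and 3 Wujin deposited values did not overlap. Below, "rose" and "fell" mean called in the same direction on both scales, in Tibetan relative to Wujin. In parentheses after a gene stand its log2 change ± SE on the deposited FPKM and, marked "scaled", the change under median-ratio scaling.

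**Figure D1:**
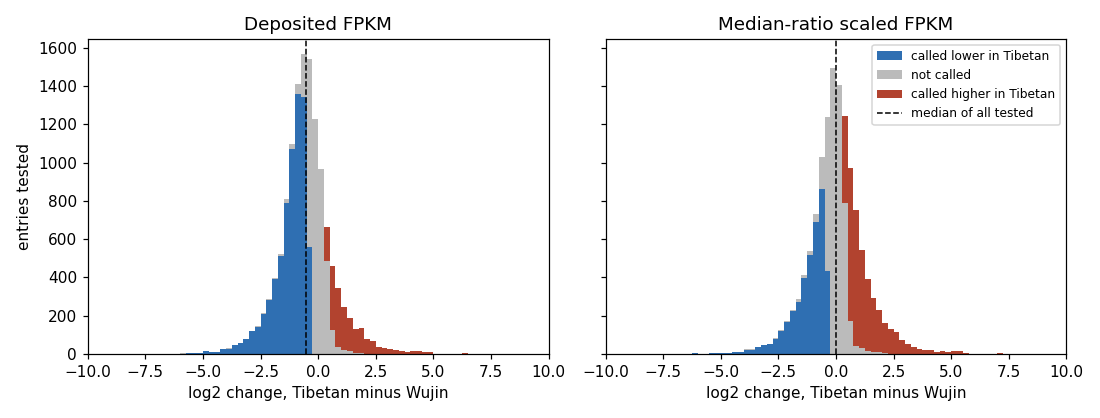
Number of tested entries by log2 change, Tibetan minus Wujin, on the deposited FPKM (left) and after median-ratio scaling (right), with calls in colour and the median of all 13106 tested entries as a dashed line. The median lies at -0.55 on the left and at -0.00 on the right, and the entries called higher number 1809 on the left and 4052 on the right.

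Large changes were common on both scales. A log2 change of at least 3 was called for 123 entries upward and 290 downward on the deposited FPKM, and for 229 upward and 170 downward under median-ratio scaling. At the far end, 8 entries were listed at 0 in all 3 Wujin libraries with at least 1 FPKM in each Tibetan library, and 59 were listed at 0 in all 3 Tibetan libraries with at least 1 FPKM in each Wujin library.

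The tissue label was checked against defining genes of skeletal muscle, of which 6 of 10 were matched by symbol. Of these 6, 3 were called higher and 2 lower on the deposited FPKM, and 3 and 1 under median-ratio scaling. The 2 lower were CHRNA1 and MYOD1, given with their groups below, as is CASQ1, which was higher. Desmin (DES), the intermediate filament of muscle, was at 2888, 3053 and 2585 FPKM in Tibetan and 1769, 1477 and 1366 FPKM in Wujin libraries. Nebulin (NEB), the thin-filament ruler, was at 448, 288 and 416 against 93.9, 152 and 139.6 FPKM. Skeletal actin (ACTA1) was listed at 37424, 0 and 41829 FPKM in Tibetan and 5708, 6722 and 7148 FPKM in Wujin libraries. The 0 in Tibetan 2 stands beside 18928 FPKM for the thin-filament gene TNNC2 in the same library, and an exact 0 can be a failed estimate, so no change is read from ACTA1. One unnamed entry (ENSSSCG00000019894) was listed at 52818 FPKM in Tibetan 3 and at 0 in the other 5 libraries.

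Among named entries that were called on both scales, did not overlap and averaged at least 5 FPKM over the 6 libraries, 826 were higher in Tibetan and 1210 lower. The highest change was that of MYBPC2, a myosin-binding protein C made in fast fibres, at 1903, 1316 and 2289.99 FPKM in Tibetan and 17.2, 14.2 and 9.05 FPKM in Wujin libraries. Its log2 change was 6.99 ± 0.25 (limma adjusted p = 8.7e-08), and 7.72 under median-ratio scaling. CKMT2, the creatine kinase of muscle mitochondria, followed at 658, 610.2 and 855 against 7.05, 10.1 and 6.07 FPKM, a log2 change of 6.35 ± 0.20 (limma adjusted p = 5.4e-08). For both genes the lowest Tibetan value was far above the highest Wujin value.

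The titin-binding stretch-response gene ANKRD23 was at 706, 481 and 854 FPKM in Tibetan and 7.795, 9.74 and 9.19 FPKM in Wujin (log2 change 6.07 ± 0.24, scaled 6.79). CA14, a membrane carbonic anhydrase, was at 57.2, 40.5 and 57.7 against 0.467, 0.503 and 0.239 FPKM. SLC2A4, the insulin-regulated glucose transporter GLUT4, was at 88.8, 63.4 and 83.7 against 1.43, 1.56 and 1.798 FPKM. Each of these groups was separated by a wide gap, and the log2 changes of CA14 and SLC2A4 were 5.22 ± 0.20 and 4.93 ± 0.16. Others among the 15 were PDK4, MYH8, FOS, FBXO40, NR4A3, PYGM, UCP3 and ZBTB16, all described with their groups below, and DEFB1. DEFB1, a beta-defensin of innate immunity, was at 24.3, 41.3 and 21.8 FPKM in Tibetan and listed at 0 in all 3 Wujin libraries, so no fold is given.

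The lowest change was that of MYL4. This gene, the embryonic and atrial myosin light chain, was at 4.004, 2.297 and 4.87 FPKM in Tibetan and 2188, 1866 and 1607 FPKM in Wujin libraries. Its log2 change was -8.67 ± 0.22 (limma adjusted p = 3.2e-08), and -8.04 under median-ratio scaling. Cardiac actin (ACTC1), the main actin of early muscle, was at 29.95, 22.7 and 21.04 against 7699, 7694 and 7352 FPKM, with a log2 change of -8.23 ± 0.15. The 3 Wujin values of ACTC1 were close together and all lay far above the 3 Tibetan values.

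Outside the sarcomere, PRR32, a proline-rich protein, was at 0.261, 0.252 and 0.313 FPKM in Tibetan and 81.4, 94.3 and 92.9 FPKM in Wujin libraries, a log2 change of -6.15 ± 0.10. Nestin (NES), the intermediate filament of progenitors and young myotubes, was at 4.95, 4.09 and 8.16 against 425, 381 and 269.8 FPKM. STMN1, a microtubule-destabilizing protein of dividing cells, was at 8.796, 11.1 and 7.57 against 292, 286 and 269 FPKM. For each of these 3 genes every Wujin value lay far above every Tibetan value. CRABP2, which carries retinoic acid to its nuclear receptor, was at 0.692, 0.759 and 1.901 against 87.8, 86.9 and 70.6 FPKM. PTN, the secreted growth factor pleiotrophin, was at 3.22, 1.01 and 0.955 against 84.4, 75.3 and 116 FPKM. IL17B, a cytokine of the interleukin-17 family, was at 3.99, 3.89 and 2.11 against 157, 114 and 117 FPKM. These 3 fell with log2 changes of -5.33 ± 0.24, -5.16 ± 0.34 and -4.93 ± 0.21. POSTN, TNNT2, SFRP2, COL12A1, FNDC1, VCAN and MYMK complete the 15.

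**Figure D2:**
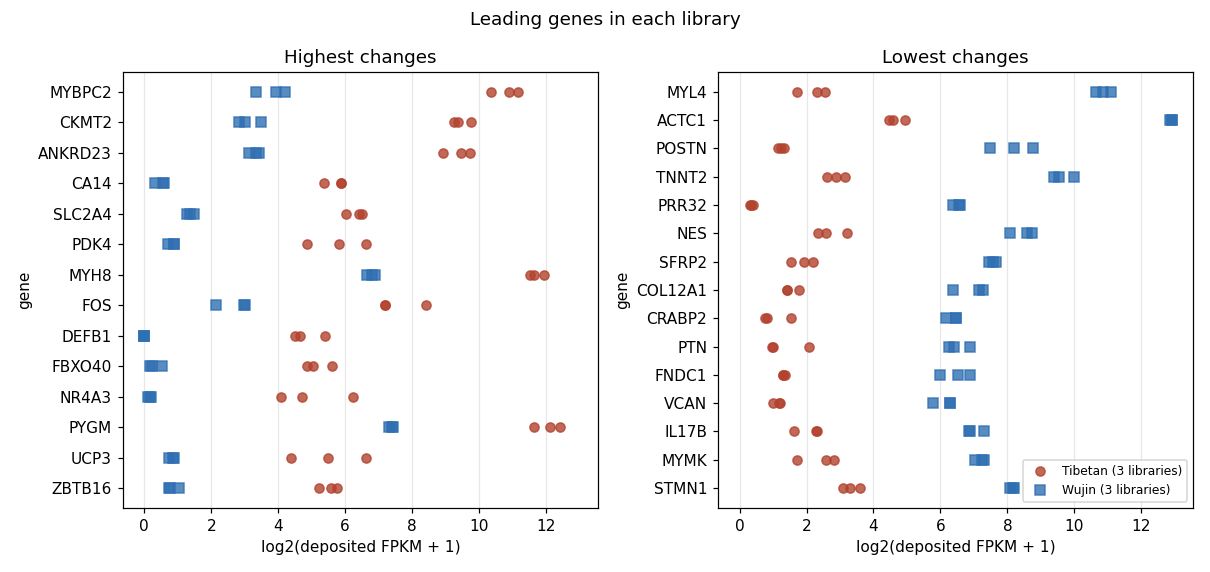
Levels of 14 of the 15 genes with the highest (left) and of the 15 with the lowest (right) log2 change, as log2(deposited FPKM + 1) on the horizontal axis, with 1 point for each of the 3 Tibetan and 3 Wujin libraries. For each gene shown the breeds form separate groups, as the choice of the genes required, and DEFB1 lies at 0 in the 3 Wujin libraries.

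The sarcomere genes separated by isoform. Of 9 tested genes of fast fibres, 8 were called higher and 0 lower on the deposited FPKM, and 9 and 0 under median-ratio scaling (median log2 change 3.29 and 4.03). ATP2A1, the fast-fibre calcium pump SERCA1, was at 2845, 2034 and 3815 FPKM in Tibetan and 143, 172 and 149 FPKM in Wujin libraries (log2 change 4.18 ± 0.21, scaled 4.91). Calsequestrin 1 (CASQ1), which stores calcium in the reticulum, was at 974, 1173 and 1536 against 127, 100.02 and 82.5 FPKM. MYOZ1, a Z-disc protein of fast fibres, was at 2994, 2707 and 2754 against 300.3, 293 and 269 FPKM. Tibetan levels of these 3 were thus high in every library, with log2 changes of 3.56 ± 0.20 for CASQ1 and 3.29 ± 0.15 for MYOZ1. Parvalbumin (PVALB), a calcium buffer of fast fibres, was uneven in Tibetan at 2.79, 34.3 and 50.2 FPKM and was at or near 0 in Wujin (0.202, 0 and 0 FPKM).

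Abundant fast subunits already high in Wujin had smaller changes. Fast troponin C (TNNC2) was at 19958, 18928 and 23406 FPKM in Tibetan and 13304, 8756 and 8834 FPKM in Wujin libraries, a log2 change of 1.03 ± 0.22 (limma adjusted p = 0.0023) that turned to -0.080 under quantile normalization. The essential light chain MYL1 was at 6548, 5999.7 and 6774 against 2491, 3123 and 2946 FPKM, a change of 1.18 ± 0.14. The fast regulatory light chain MYL11, named after its values were seen, was at 20890.1, 21188 and 21556 against 16210.5, 14401 and 13645 FPKM, with the small change of 0.53 ± 0.16, which was -0.42 under quantile normalization and lost its call on leaving out single libraries (limma adjusted p = 0.051 to 0.068 without Tibetan 1, Wujin a or Wujin b). SRL, a calcium-binding protein of the reticulum, was the 1 fast-fibre member not called on the deposited FPKM (-0.28 ± 0.20), and it was called higher under median-ratio scaling (0.45), a call lost with single libraries left out (limma adjusted p = 0.071 to 0.11 without Tibetan 1, Tibetan 3, Wujin 1 or Wujin b).

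The embryonic and neonatal list held genes that went opposite ways. Of 9 tested members, 6 fell, 1 rose and 2 were not called, with the same counts on both scales. The embryonic myosin heavy chain MYH3 was at 68.9, 52.6 and 66.2 FPKM in Tibetan and 1474, 1612 and 1203 FPKM in Wujin libraries, a log2 change of -4.49 ± 0.16 (limma adjusted p = 8.7e-08). The neonatal heavy chain MYH8 did the reverse, at 2927, 3157 and 3906 against 99.02, 109.6 and 117 FPKM and a change of 4.92 ± 0.14 (limma adjusted p = 4.5e-08). The cardiac and embryonic troponin T gene TNNT2 was at 6.41, 7.95 and 5.16 against 1023, 740.2 and 663 FPKM (change -6.74 ± 0.20, scaled -6.07). Smooth muscle actin (ACTA2), also made by young myotubes, was at 52.02, 45.7 and 68.7 against 523, 544 and 487 FPKM (change -3.22 ± 0.18, scaled -2.49). The sarcomeric myosin heavy chain genes are near-identical over long stretches, and the actin genes share most of their coding sequence, so the division of reads among them is uncertain.

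Slow-fibre genes were uneven, with Tibetan 2 apart. Of 7 tested, 3 were called higher and 0 lower on the deposited FPKM, and 4 and 0 under median-ratio scaling. Slow troponin C (TNNC1) was at 1663, 8645 and 1615 FPKM in Tibetan and 2105, 1568 and 1269 FPKM in Wujin libraries, and was not called (log2 change 0.82 ± 0.57, scaled 1.56). Slow troponin I (TNNI1) was at 1019, 3367 and 1273 against 1620.4, 1242 and 1026 FPKM, also not called (0.36 ± 0.40, scaled 1.1003). Slow troponin T (TNNT1) was at 893, 2855 and 1044 against 639, 515 and 379 FPKM and rose (1.47 ± 0.41, scaled 2.21). In each of these genes Tibetan 2 stood well above Tibetan 1 and 3, and the same held for MYL3 (861, 2081 and 1031 FPKM in Tibetan, 388, 429 and 261 FPKM in Wujin) and MYH7B (13.3, 56.1 and 14.5 against 39.8, 33.4 and 21.1 FPKM). CSRP3, a Z-disc and stress-response protein on the embryonic list, shared this pattern at 139, 493 and 128 against 413, 405 and 444 FPKM. MYH7B and CSRP3 were called lower without that library (limma adjusted p = 0.0079 without Tibetan 2 for MYH7B and limma adjusted p = 5.7e-05 without Tibetan 2 for CSRP3), the latter also under median-ratio scaling (limma adjusted p = 0.0028 without Tibetan 2). TNNC1 and TNNI1 were called higher under median-ratio scaling with another library left out (limma adjusted p = 0.032 without Tibetan 1 or Tibetan 3 for TNNC1 and limma adjusted p = 0.025 to 0.045 without Tibetan 1 or Wujin 1 for TNNI1). Sarcolipin (SLN), an inhibitor of the calcium pump, did not share it: it was at 2911, 1760.2 and 2525 against 918, 924 and 871 FPKM and rose by 1.38 ± 0.20 on the log2 scale.

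The sarcomere genes common to all fibres were mostly higher. Of 24 tested, 17 were called higher and 0 lower on the deposited FPKM, and 22 and 0 under median-ratio scaling (median log2 change 1.27 and 2.002). TMOD4, which caps thin filaments in muscle, was at 656, 606 and 767 FPKM in Tibetan and 32.4, 25.2 and 23.97 FPKM in Wujin libraries, a change of 4.59 ± 0.17. The Z-disc protein PDLIM3 was at 783, 584 and 794 against 29.4, 45.8 and 45.6 FPKM (4.14 ± 0.20, scaled 4.88). Telethonin (TCAP), which ties titin ends together at the Z-disc, was at 1475, 1849 and 1559 against 278, 193 and 170.4 FPKM (2.95 ± 0.19, scaled 3.69). Smaller changes were found for ACTN2, the Z-disc cross-linker (0.58 ± 0.15, scaled 1.32), and for MYOM2 of the M-band (0.84 ± 0.12, scaled 1.58), while the myosin chaperone UNC45B (-0.15 ± 0.19, scaled 0.58) and its partner SMYD1 (-0.38 ± 0.41, scaled 0.34) were not called on the deposited FPKM. UNC45B was called higher under median-ratio scaling, a call lost with single libraries left out (limma adjusted p = 0.06 to 0.087 without Tibetan 1, Tibetan 3, Wujin a or Wujin b).

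A share of related genes within a library does not change when the whole library is rescaled, so it needs no choice between the scales. The 12 such shares computed were chosen after the values were seen and are given without a test. Among MYH3 and MYH8, MYH8 took 97.7%, 98.4% and 98.3% of the summed FPKM in Tibetan and 6.29%, 6.37% and 8.84% in Wujin libraries. Among MYL1 and MYL4, MYL4 took 0.0611%, 0.0383% and 0.0718% in Tibetan and 46.8%, 37.4% and 35.3% in Wujin. The breeds were therefore on opposite sides of the exchange for the heavy chains, and MYL4 was nearly absent from the pair in Tibetan. Among PFKM, PFKL and PFKP, the 3 phosphofructokinases, the muscle form PFKM took 98.8%, 97.4% and 98.9% in Tibetan and 37.9%, 51.3% and 48.2% in Wujin. Among ENO1 and ENO3, the muscle enolase ENO3 took 99.6%, 99.5% and 99.7% and 86.1%, 83.4% and 81.7%. Among HK1 and HK2, the insulin-responsive hexokinase HK2 took 86.04%, 75.2% and 71.5% and 12.4%, 18.9% and 10.6%. The muscle form was already the larger part in Wujin for enolase but not for hexokinase.

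For creatine kinase, CKMT2 took 99.6%, 99.4% and 99.6% of CKB and CKMT2 in Tibetan and 6.38%, 8.03% and 6.73% in Wujin. For the uncoupling proteins, UCP3 took 96.99%, 80.7% and 95.5% of UCP2 and UCP3 in Tibetan and 2.15%, 4.26% and 3.86% in Wujin. In both of these pairs every Tibetan share lay above every Wujin share. The 1 set among the 12 in which the breeds overlapped was troponin C, where TNNC1 took 7.69%, 31.4% and 6.45% of TNNC1 and TNNC2 in Tibetan and 13.7%, 15.2% and 12.6% in Wujin, so that Tibetan 2 lay above and Tibetan 1 and 3 below the Wujin libraries.

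**Figure D3:**
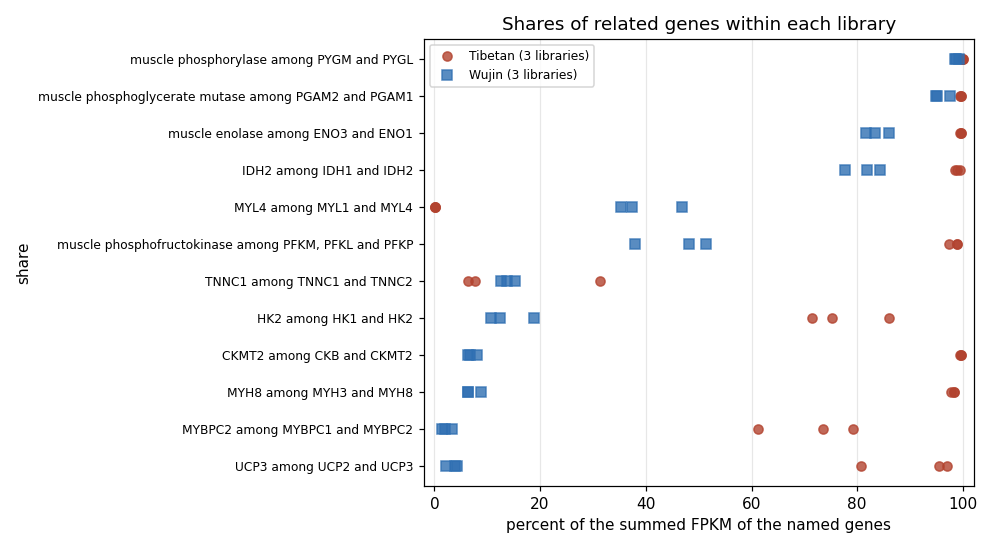
Percent of the summed FPKM of related genes taken by the first-named gene or the muscle form, with 1 point for each of the 3 Tibetan and 3 Wujin libraries. MYH8 and CKMT2 lie near the right edge in every Tibetan library and near the left edge in every Wujin library. UCP3 does so too except in Tibetan 2, where it is at 80.7%, and TNNC1 is the 1 share in which the breeds overlap.

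Genes of the triad, where an action potential releases calcium, were mostly higher. Of 15 tested, 10 were called higher and 1 lower on the deposited FPKM, and 13 and 1 under median-ratio scaling. CACNA1S, the voltage sensor of the tubule membrane, was at 112, 89.996 and 153 FPKM in Tibetan and 38.9, 42.4 and 38.9 FPKM in Wujin libraries (log2 change 1.51 ± 0.18, scaled 2.24). Junctophilin 1 (JPH1), which bridges tubule and reticulum, was at 70.1, 61.1 and 85.5 against 16.5, 19.8 and 17.4 FPKM (1.95 ± 0.14, scaled 2.67). The muscle sodium channel SCN4A was at 29.4, 23.8 and 40.3 against 9.33, 13.1 and 12.6 FPKM (1.33 ± 0.20, scaled 2.04). ASPH, whose gene also encodes the triad protein junctin, was at 1.26, 1.06 and 0.995 against 2.62, 4.92 and 6.26 FPKM and fell (-1.36 ± 0.22, scaled -0.89). Of 15 transporters and pumps, 11 were called higher and 3 lower on the deposited FPKM, and 12 and 0 under median-ratio scaling. Without Wujin b, 1 in place of 3 was called lower on the deposited FPKM. ATP1B1, a sodium-pump beta subunit, was at 73.3, 75.7 and 75.6 against 4.45, 5.69 and 7.54 FPKM (3.48 ± 0.16, scaled 4.19).

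Genes of the nerve-muscle contact went the other way. Of 10 tested, 9 fell on both scales and 1 was called higher under median-ratio scaling (median log2 change -2.01 and -1.44 under median-ratio scaling). The acetylcholine receptor subunit CHRNA1 was at 1.64, 1.47 and 2.17 FPKM in Tibetan and 9.55, 27.1 and 21.7 FPKM in Wujin libraries (-2.78 ± 0.31, scaled -2.23). COLQ, which anchors acetylcholinesterase at the endplate, was at 0.247, 0.249 and 0.248 against 14.2, 14.1 and 12.6 FPKM (-3.55 ± 0.11, scaled -3.26). The adhesion molecule NCAM1, spread over the surface of immature fibres, was at 3.68, 3.64 and 7.98 against 34.2, 51.6 and 41.8 FPKM (-2.89 ± 0.26, scaled -2.24). CHRNE, the adult-type receptor subunit, overlapped between the breeds at 4.67, 3.77 and 4.17 against 4.51, 3.71 and 2.48 FPKM. It was not called on the deposited FPKM (0.21 ± 0.28) and was higher under median-ratio scaling (0.81, limma adjusted p = 0.034; limma adjusted p = 0.064 to 0.12 without Tibetan 1, Tibetan 2, Tibetan 3, Wujin a or Wujin b). In the dystrophin complex the scales disagreed, with 1 higher and 4 lower of 11 on the deposited FPKM but 5 and 1 under median-ratio scaling. Dystrophin itself (DMD) has 2 entries under 1 identifier. The more abundant, which the counts use, was at 18.4, 10.3 and 12.01 against 7.52, 16.9 and 19.8 FPKM and was called on neither scale with all libraries, and it was higher under median-ratio scaling with 1 left out (limma adjusted p = 0.028 without Wujin b). The other was at 16.2, 12.1 and 11.3 against 7.87, 11.7 and 17.1 FPKM, was not called on the deposited FPKM (0.14 ± 0.24) and was called higher under median-ratio scaling (0.84, limma adjusted p = 0.0049).

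Glycolysis and glycogen genes were mostly higher. Of 38 tested, 27 were called higher and 6 lower on the deposited FPKM, and 31 and 4 under median-ratio scaling (median log2 change 2.06 and 2.76). Summed, the matched genes of this list made up 10.8% to 11.6% of all FPKM in Tibetan and 1.24% to 1.59% in Wujin libraries. GAPDH alone was at 37996, 40396 and 44224 FPKM in Tibetan and 4721, 4010.2 and 3975 FPKM in Wujin (log2 change 3.27 ± 0.15, scaled 4.01, limma adjusted p = 2.7e-07). Muscle enolase ENO3 was at 10452, 9009 and 10755 against 669, 560.3 and 546 FPKM (4.09 ± 0.17, scaled 4.83). Lactate dehydrogenase A (LDHA) was at 2032, 1705 and 2415 against 98.5, 131 and 141 FPKM (4.04 ± 0.18, scaled 4.78). These are among the most abundant transcripts of the Tibetan libraries, and GAPDH was the highest of the 3 in each of the 6 libraries.

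Among muscle forms on this list, muscle phosphorylase (PYGM), which releases glucose units from glycogen, was at 4413, 3179 and 5493 FPKM in Tibetan and 169, 169.9 and 157 FPKM in Wujin libraries (4.68 ± 0.20, scaled 5.42). PHKA1, the muscle subunit of the kinase that switches phosphorylase on, was at 61.2, 42.5 and 79.9 against 1.101, 2.098 and 2.43 FPKM (4.42 ± 0.24, scaled 5.1002). PFKM, the muscle phosphofructokinase that sets the pace of glycolysis, was at 970.1, 562 and 1082 against 28.97, 43.997 and 41.7 FPKM (4.44 ± 0.26, scaled 5.18). The muscle fructose bisphosphatase FBP2 was at 328, 213 and 463 against 12.3, 12.8 and 10.7 FPKM (4.63 ± 0.24, scaled 5.36). PDK4, which inhibits the mitochondrial enzyme pyruvate dehydrogenase, was at 54.7, 96.6 and 28.1 against 0.648, 0.858 and 0.851 FPKM (4.92 ± 0.36, scaled 5.56). The widely expressed forms in the same list fell instead: PFKL (5.96, 9.66 and 6.44 in Tibetan and 38.6, 33.2 and 32.6 FPKM in Wujin, -2.12 ± 0.17, scaled -1.45), HK1 (-2.02 ± 0.11, scaled -1.36) and ENO1 (-1.45 ± 0.12, scaled -0.72). PFKFB1, a regulator of glycolysis, was far above its peers in Tibetan 1 at 34.2, 3.23 and 11.7 FPKM, against 2.96, 5.28 and 4.805 FPKM in Wujin, and was not called on the deposited FPKM unless Tibetan 2 was left out (limma adjusted p = 0.0032 without Tibetan 2). Its higher call under median-ratio scaling was lost with other libraries left out (limma adjusted p = 0.051 to 0.06 without Tibetan 3 or Wujin 1).

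In the phosphagen system, which buffers ATP during contraction, 9 of 11 genes rose and 2 fell. The ATP carrier of muscle mitochondria, SLC25A4, was at 1158, 1423 and 1241 FPKM in Tibetan and 162, 143 and 144 FPKM in Wujin libraries (3.08 ± 0.12, scaled 3.81). Adenylate kinase AK1 was at 661, 621 and 917 against 188, 148 and 109.8 FPKM (2.31 ± 0.22, scaled 3.05). The 2 that fell were the brain-type creatine kinase CKB, at 2.49, 3.67 and 3.43 against 103, 116 and 84.02 FPKM (-4.603 ± 0.16, scaled -3.98), and GATM, the first enzyme of creatine synthesis (-0.79 ± 0.16, scaled -0.46).

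Mitochondrial genes were mostly higher. Of 36 nuclear-encoded subunits of the respiratory chain, 31 were called higher and 2 lower on the deposited FPKM, and 34 and 0 under median-ratio scaling (median log2 change 1.29 and 2.01). Complex II subunit SDHB was at 248, 243 and 249 FPKM in Tibetan and 51.4, 46.7 and 49.1 FPKM in Wujin libraries (2.31 ± 0.09, scaled 3.04). Cytochrome c (CYCS) was at 183, 154 and 133 against 27.1, 33.1 and 32.2 FPKM (2.304 ± 0.17, scaled 3.04). The cytochrome oxidase subunit COX5A was at 484, 574 and 494 against 116, 124 and 114 FPKM (2.12 ± 0.11, scaled 2.86). The 2 subunits called lower on the deposited FPKM were COX8A (-0.91 ± 0.13) and COX7A2 (-0.99 ± 0.19), and neither was called under median-ratio scaling (-0.17 and -0.26) with all libraries. COX7A2 was called lower there with 1 left out (limma adjusted p = 0.029 without Tibetan 2).

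All 13 protein genes of the mitochondrial genome were higher under median-ratio scaling and 12 of them on the deposited FPKM, where the exception was ND4L, called higher only with 1 library left out (limma adjusted p = 0.018 without Tibetan 2). They summed to 13.5% to 16.4% of all FPKM in Tibetan and 6.06% to 9.204% in Wujin libraries. COX1 was at 12306, 10234 and 12352 against 5654, 6043 and 6138 FPKM (0.96 ± 0.13, and -0.013 under quantile normalization), and ND1 at 2354, 1823 and 2269 against 644, 869 and 857 FPKM (1.45 ± 0.17, scaled 2.19). Within Wujin, library 1 had the lowest value for all of the 13. The matrix enzymes followed, with 16 of 19 genes of the tricarboxylic acid cycle higher and 1 lower on the deposited FPKM, and 18 and 1 under median-ratio scaling. IDH2, the mitochondrial isocitrate dehydrogenase, was at 439.5, 461 and 389 against 60.5, 70.1 and 66.03 FPKM (2.69 ± 0.12, scaled 3.43), whereas the cytosolic form IDH1 was at 2.59, 7.402 and 4.78 against 11.2, 15.6 and 19.03 FPKM and was the 1 that fell (-1.52 ± 0.29, scaled -0.88), though under median-ratio scaling its call was lost with single libraries left out (limma adjusted p = 0.072 to 0.1 without Tibetan 1, Tibetan 3, Wujin a or Wujin b).

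Genes of fatty acid oxidation were mostly higher too. Of 28 tested genes, 22 were called higher and 3 lower on the deposited FPKM, and 25 and 2 under median-ratio scaling. ACADM, the medium-chain dehydrogenase, was at 60.4, 62.4 and 46.5 FPKM in Tibetan and 8.55, 13.01 and 12.5 FPKM in Wujin libraries (2.23 ± 0.17, scaled 2.95). CPT1B, the muscle enzyme that admits fatty acids to the mitochondrion, was at 48.9, 43.3 and 35.4 against 9.27, 12.6 and 11.8 FPKM (1.83 ± 0.16, scaled 2.55). The muscle uncoupling protein UCP3 was at 97.1, 20.01 and 44.2 against 0.6598, 0.808 and 0.857 FPKM (4.68 ± 0.44, scaled 5.31), while UCP2 was at 3.02, 4.796 and 2.09 against 30.02, 18.2 and 21.4 FPKM (-2.51 ± 0.24, scaled -1.899). UCP3 was thus uneven among the Tibetan libraries, highest in Tibetan 1, yet above every Wujin library.

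Among regulators of oxidative genes, 6 of 15 were called higher and 3 lower on the deposited FPKM, and 10 and 1 under median-ratio scaling. PPARGC1A, the coactivator PGC-1alpha, was at 44.8, 21.5 and 12.9 FPKM in Tibetan and 1.81, 2.22 and 2.24 FPKM in Wujin libraries (2.98 ± 0.36, scaled 3.64, limma adjusted p = 7.2e-05). Its partner receptor ESRRA was at 39.5, 34.5 and 40.9 against 6.83, 6.54 and 5.75 FPKM (2.41 ± 0.11, scaled 3.12). NR4A3, an orphan nuclear receptor induced by activity, was at 73.5, 16.1 and 25.04 against 0.1303, 0.155 and 0.0799 FPKM (4.84 ± 0.43, scaled 5.41). For PPARGC1A and NR4A3 the highest value was in Tibetan 1. Lipid-storage genes were divided: PLIN4 (28.7, 16.4 and 23.9 against 0.593, 0.415 and 0.3103 FPKM, 4.03 ± 0.19, scaled 4.62) and the lipase PNPLA2 (2.48 ± 0.16, scaled 3.21) rose, and the desaturases FADS1 (1.84, 1.88 and 2.71 against 12.3, 14.96 and 12.5 FPKM, -2.19 ± 0.14, scaled -1.62) and FADS2 (-1.76 ± 0.23, scaled -1.11) fell.

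**Figure D4:**
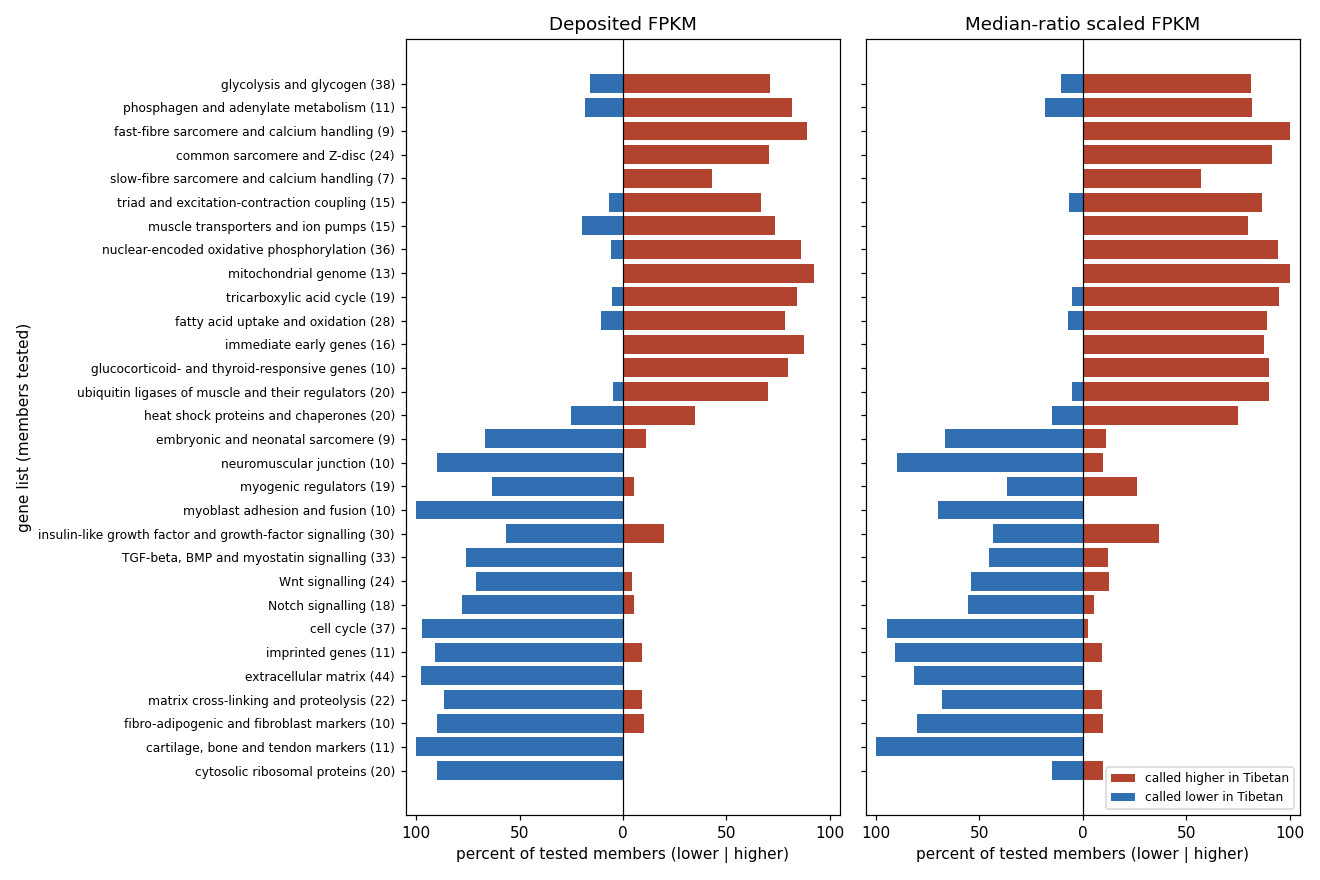
Percent of the tested members of 30 gene lists called lower (left of 0) or higher (right of 0) in Tibetan than in Wujin, on the deposited FPKM and after median-ratio scaling. Over all 13106 entries the shares are 53.9% lower and 13.8% higher on the deposited scale and 30.4% and 30.9% after scaling, and cytosolic ribosomal proteins go from 18 to 3 of 20 called lower between the panels.

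The transcription factors of the muscle lineage were called in shares near those of all tested entries on either scale. Of 19 tested, 1 was called higher and 12 lower on the deposited FPKM, and 5 and 7 under median-ratio scaling, beside 13.8% and 53.9% of all entries on the first scale and 30.9% and 30.4% on the second. Without Tibetan 2, 4 in place of 1 were called higher on the deposited FPKM. MYF5, the determination factor of myoblasts, was at 5.86, 5.18 and 3.01 FPKM in Tibetan and 44.3, 56.3 and 51.5 FPKM in Wujin libraries (-3.22 ± 0.20, scaled -2.57, limma adjusted p = 1.2e-06). Musculin (MSC), a repressor of differentiation in myoblasts, was at 1.38, 0.956 and 1.16 against 44.2, 38.9 and 35.98 FPKM (-4.23 ± 0.13, scaled -3.74). MEF2C was at 51.3, 50.2 and 62.1 against 175, 225 and 214 FPKM (-1.89 ± 0.14, scaled -1.16). MYOD1 was lower on the deposited FPKM (31.4, 21.3 and 24.4 against 56.9, 56.7 and 49.6 FPKM, -1.07 ± 0.14) but was not called under median-ratio scaling (-0.35, limma adjusted p = 0.074) unless 1 library was left out (limma adjusted p = 0.03 to 0.038 without Tibetan 1 or Wujin b). MYF6, the factor of formed fibres, overlapped at 33.9, 45.9 and 68.7 against 50.3, 43.7 and 43.6 FPKM and was called only under median-ratio scaling (0.78), a call lost with single libraries left out (limma adjusted p = 0.055 to 0.076 without Tibetan 2, Tibetan 3, Wujin a or Wujin b).

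Fusion genes were lower. All 10 tested were called lower on the deposited FPKM and 7 under median-ratio scaling, where none was called higher. Myomaker (MYMK), the membrane protein that myoblasts need to fuse, was at 2.29, 5.999 and 4.94 FPKM in Tibetan and 155, 149 and 130.2 FPKM in Wujin libraries (-4.82 ± 0.25, scaled -4.18, limma adjusted p = 4.5e-07). M-cadherin (CDH15) was at 22.2, 12.4 and 15.2 against 118, 99.1 and 88.2 FPKM (-2.57 ± 0.20, scaled -1.87), and JAM3 at 4.64, 4.09 and 5.67 against 27.4, 51.4 and 48.5 FPKM (-2.86 ± 0.22, scaled -2.21). N-cadherin (CDH2) has 3 entries under 1 identifier. The most abundant, which the counts use, was listed at 0 in all 3 Tibetan libraries and also in Wujin 1, against 9.82 and 6.09 FPKM in Wujin a and b, and its lower call was lost with single libraries left out (limma adjusted p = 0.064 to 0.1 without Tibetan 1, Tibetan 2, Tibetan 3, Wujin a or Wujin b; under median-ratio scaling limma adjusted p = 0.07 to 0.11 without Tibetan 1, Tibetan 2, Tibetan 3, Wujin a or Wujin b). A second entry was at 0.0561, 0.0672 and 0 against 1.88, 2.92 and 2.69 FPKM (-1.74 ± 0.20, scaled -1.59, limma adjusted p = 5.6e-05), and the third, below the level tested, at 0, 0 and 0.134 against 1.03, 0 and 0 FPKM. Of 4 tested fetal timing genes, 4 were called lower on the deposited FPKM and 3 under median-ratio scaling. IGF2BP1, a fetal mRNA-binding protein, was listed at 0 in all 3 Tibetan libraries and was at 1.84, 1.73 and 1.91 FPKM in Wujin, and PLAGL1 was at 3.77, 2.71 and 2.39 against 27.3, 45.2 and 43.96 FPKM (-3.31 ± 0.20, scaled -2.704).

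Cell-cycle genes were lower almost throughout. Of 37 tested, 36 were called lower and none higher on the deposited FPKM, and 35 lower and 1 higher under median-ratio scaling (median log2 change -1.98 and -1.77). Their summed level was 0.00413% to 0.004297% of all FPKM in Tibetan and 0.0552% to 0.0577% in Wujin libraries. The replication helicase subunit MCM2 was at 0.221, 0.287 and 0.4004 FPKM in Tibetan and 14.8, 18.1 and 17.5 FPKM in Wujin (-3.77 ± 0.12, scaled -3.46, limma adjusted p = 5.4e-08). Topoisomerase TOP2A was at 0.112, 0.328 and 0.203 against 12.9, 17.2 and 20.8 FPKM (-3.86 ± 0.17, scaled -3.58). UBE2C, which drives exit from mitosis, was at 0.509, 0.767 and 0.457 against 20.1, 24.2 and 24.7 FPKM (-3.93 ± 0.13, scaled -3.53). These 3 and CDK1 (0.203, 0.245 and 0.183 against 5.35, 6.35 and 7.42 FPKM) were all under 1 FPKM in every Tibetan library and over 5 FPKM in every Wujin library. CDC25A was the 1 member that stood apart, overlapping at 2.17, 1.99 and 2.18 against 0.745, 2.34 and 2.57 FPKM and called higher under median-ratio scaling. The inhibitor CDKN1A was at 36.7, 22.8 and 28.6 against 62.5, 57.2 and 53.3 FPKM, lower on the deposited FPKM (-0.97 ± 0.19) and not called under median-ratio scaling (-0.25).

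Genes of the connective tissue matrix were lower almost without exception. Of 44 tested matrix genes, 43 were called lower and none higher on the deposited FPKM, and 36 lower and none higher under median-ratio scaling (median log2 change -2.53 and -1.86). They summed to 0.171% to 0.175% of all FPKM in Tibetan and 1.24% to 2.01% in Wujin libraries. Periostin (POSTN), a matrix protein of growing connective tissue, was at 1.35, 1.23 and 1.504 FPKM in Tibetan and 176, 294 and 435 FPKM in Wujin (-6.91 ± 0.31, scaled -6.39, limma adjusted p = 2.4e-07). The fibrillar collagen chains COL1A2 and COL3A1 were at 47.2, 42.5 and 56.6 and 98.3, 101 and 153 FPKM in Tibetan and at 944, 1133 and 1408 and 1315, 2005 and 2691 FPKM in Wujin. Both fell, with log2 changes of -4.54 ± 0.17 and -4.05 ± 0.27. COL12A1, a collagen on fibril surfaces, was at 2.42, 1.69 and 1.68 against 82.4, 142 and 153 FPKM (-5.39 ± 0.23, scaled -4.83). The proteoglycan versican (VCAN) was at 1.25, 1.29 and 0.982 against 54.4, 77.2 and 77.1 FPKM (-5.004 ± 0.16, scaled -4.501), and FNDC1, a fibronectin-domain protein, at 1.58, 1.48 and 1.46 against 62.1, 91.5 and 117 FPKM (-5.14 ± 0.21, scaled -4.599).

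Some matrix genes changed by less. COL6A1, a chain of the collagen VI microfibrils around each fibre, was at 54.6, 44.9 and 50.3 FPKM in Tibetan and 98.9, 144 and 139.7 FPKM in Wujin libraries and fell by a smaller amount (-1.32 ± 0.16, and -0.59 under median-ratio scaling). Laminin chain LAMC1 (-1.15 ± 0.33, scaled -0.43) and elastin (ELN, -0.96 ± 0.17, scaled -0.27) were lower on the deposited FPKM and not called under median-ratio scaling. LAMC1 lost the deposited call with 1 library left out (limma adjusted p = 0.051 without Wujin a) and was called lower under median-ratio scaling with another left out (limma adjusted p = 0.00032 without Wujin 1). In Wujin, library 1 held the lowest value of COL3A1, COL12A1, POSTN, FN1 and SPARC; FN1 was at 67.3, 166 and 225 FPKM there against 9.57, 8.46 and 9.62 FPKM in Tibetan. Of 22 cross-linking and degrading enzymes, 19 were called lower and 2 higher on the deposited FPKM, and 15 and 2 under median-ratio scaling. The membrane collagenase MMP14 was at 6.71, 5.23 and 4.699 against 89.5, 103 and 115 FPKM (-3.99 ± 0.14, scaled -3.33). Of the 2 that rose, ADAMTS1, a secreted protease, was at 4.67, 6.41 and 9.73 against 1.64, 2.53 and 3.21 FPKM (1.17 ± 0.27, scaled 1.803).

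Markers of the cells that make this matrix moved in the same direction, and in bulk muscle fewer cells of a type and less RNA per cell cannot be told apart. Of 10 tested fibroblast and fibro-adipogenic markers, 9 were called lower and 1 higher on the deposited FPKM, and 8 and 1 under median-ratio scaling. Their sum was 0.0133% to 0.0167% of all FPKM in Tibetan and 0.0345% to 0.0494% in Wujin libraries. PDGFRA, the defining receptor of these cells, was at 2.55, 1.47 and 1.93 FPKM in Tibetan and 4.37, 15.5 and 17.6 FPKM in Wujin (-1.999 ± 0.41, scaled -1.44), and PI16, a marker of quiescent fibroblasts, was the 1 that rose (11.04, 22.8 and 12.5 against 4.16, 4.13 and 10.7 FPKM, 1.21 ± 0.43, scaled 1.899), a call lost with single libraries left out (limma adjusted p = 0.088 to 0.11 without Tibetan 2, Wujin 1 or Wujin a). All 11 tested cartilage, bone and tendon markers fell on both scales. Their sum was 0.000792% to 0.00107% of all FPKM in Tibetan and 0.0216% to 0.03596% in Wujin. Tenomodulin (TNMD), a marker of tendon cells, was at 0.164, 0.858 and 0.328 against 29.7, 33.7 and 51.8 FPKM (-4.75 ± 0.45, scaled -4.39), and the cartilage collagen COL2A1 was at 0.0132, 0.0321 and 0.0321 against 8.05, 9.27 and 8.95 FPKM. HAPLN1, COL9A1, MATN1 and IBSP on this list were at 0 in all 3 Tibetan libraries. The part of these cells in the matrix result was not tested.

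Growth-factor signalling was mixed. Of 30 tested members, 6 were called higher and 17 lower on the deposited FPKM, and 11 and 13 under median-ratio scaling. Over all tested entries the shares were 13.8% higher and 53.9% lower on the first scale, and 30.9% and 30.4% on the second. The deposited counts are near those shares. Among ligands, IGF1 was at 2.84, 4.72 and 4.22 FPKM in Tibetan and 5.36, 11.2 and 12.1 FPKM in Wujin libraries; it was lower on the deposited FPKM (-1.05 ± 0.32) and not called under median-ratio scaling (-0.42, limma adjusted p = 0.25). The deposited call was lost with single libraries left out (limma adjusted p = 0.061 to 0.063 without Tibetan 1, Wujin a or Wujin b). PDGFA fell from 13.3, 15.1 and 13.7 FPKM in Wujin to 3.09, 3.08 and 3.83 FPKM in Tibetan (-1.796 ± 0.13, scaled -1.18). Among receptors, FGFR4, the fibroblast growth factor receptor of myoblasts, was at 3.003, 3.58 and 3.79 against 57.4, 58.5 and 50.1 FPKM (-3.66 ± 0.12, scaled -3.03, limma adjusted p = 6.6e-08). FGFR1 was at 9.97, 8.22 and 9.16 against 52.2, 54.8 and 49.2 FPKM (-2.39 ± 0.11, scaled -1.704), and IGF1R at 0.654, 0.378 and 0.336 against 0.998, 1.75 and 1.596 FPKM (-0.74 ± 0.17; under median-ratio scaling limma adjusted p = 0.059 to 0.079 without Tibetan 2, Tibetan 3, Wujin a or Wujin b). The growth hormone receptor GHR rose, at 33.4, 19.4 and 24.998 against 5.66, 11.4 and 12.4 FPKM (1.35 ± 0.27, scaled 2.05). Downstream, the insulin receptor adaptor GRB10 (33.4, 28.2 and 40.8 against 11.05, 10.3 and 9.18 FPKM, 1.64 ± 0.14, scaled 2.35) and the transcription factor FOXO1 (21.3, 9.91 and 9.23 against 2.89, 3.61 and 3.49 FPKM, 1.65 ± 0.26, scaled 2.31) rose, while MTOR overlapped (0.03 ± 0.17) and was higher under median-ratio scaling only (0.68).

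In the TGF-beta family, 25 of 33 were called lower and none higher on the deposited FPKM, and 15 lower and 4 higher under median-ratio scaling. Myostatin (MSTN), the secreted brake on muscle growth, was at 0.468, 2.26 and 4.31 FPKM in Tibetan and 8.45, 19.1 and 20.9 FPKM in Wujin libraries (-2.45 ± 0.45, scaled -1.91). Its antagonist follistatin (FST) was at 2.12, 4.69 and 3.38 against 22.3, 17.9 and 19.003 FPKM (-2.27 ± 0.20, scaled -1.66). Both the brake and its antagonist were thus lower in each Tibetan library than in any Wujin library. The ligand BMP6 was at 3.58, 2.95 and 2.63 against 20.8, 24.9 and 28.7 FPKM (-2.66 ± 0.15, scaled -2.05), and the receptor TGFBR2 at 14.995, 8.39 and 16.2 against 34.5, 65.3 and 75.1 FPKM (-2.04 ± 0.31, scaled -1.34). The activin receptor ACVR2B, through which myostatin signals, overlapped at 2.26, 1.72 and 3.43 against 1.78, 2.67 and 3.65 FPKM and was called on neither scale with all libraries. It was called higher under median-ratio scaling with 1 library left out (limma adjusted p = 0.029 to 0.037 without Tibetan 2 or Wujin b).

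Wnt and Notch genes were mostly lower. For Wnt, 17 of 24 were called lower and 1 higher on the deposited FPKM, and 13 and 3 under median-ratio scaling. The secreted modulator SFRP2 was at 1.88, 2.83 and 3.59 FPKM in Tibetan and 188, 200.1 and 174 FPKM in Wujin libraries (-5.67 ± 0.16, scaled -5.06), and the receptor ROR2 at 0.162, 0.125 and 0.124 against 6.27, 6.43 and 7.36 FPKM (-2.75 ± 0.15, scaled -2.53). FRZB, another secreted antagonist, was the 1 that rose (17.4, 12.4 and 29.2 against 7.22, 9.396 and 8.72 FPKM, 1.06 ± 0.25, scaled 1.75). For Notch, 14 of 18 were called lower and 1 higher on the deposited FPKM, and 10 and 1 under median-ratio scaling, where 3 were higher without Tibetan 2. The ligand DLL1 was at 0.745, 0.793 and 1.38 against 12.3, 13.4 and 10.9 FPKM (-2.75 ± 0.15, scaled -2.29) and the receptor NOTCH3 at 6.59, 4.48 and 7.52 against 48.7, 55.98 and 49.5 FPKM (-2.89 ± 0.16, scaled -2.22). The endothelial pair DLL4 and NOTCH4 overlapped between the breeds, with changes of -0.099 ± 0.23 and -0.21 ± 0.19 that were called on neither scale with all libraries. Both were called higher under median-ratio scaling with 1 left out (limma adjusted p = 0.036 to 0.042 without Tibetan 1 or Tibetan 2 for DLL4 and limma adjusted p = 0.013 without Tibetan 2 for NOTCH4).

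Of 11 tested imprinted genes, expressed from 1 parental copy and many of them tied to fetal growth, 10 fell and 1 rose on both scales. MEST was at 0.232, 0.348 and 0.358 FPKM in Tibetan and 21.5, 30.2 and 38.1 FPKM in Wujin libraries (-4.52 ± 0.19, scaled -4.201, limma adjusted p = 1.7e-07). NDN was at 7.98, 8.57 and 8.22 against 67.4, 65.9 and 73.1 FPKM (-2.91 ± 0.12, scaled -2.23), and RTL1 at 0.0186, 0.0338 and 0.0225 against 8.204, 5.79 and 3.12 FPKM (-2.63 ± 0.25, scaled -2.49). The one that rose was GRB10, a growth inhibitor given above.

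Immediate early genes, which are transcribed within minutes of a stimulus, were higher. On each scale 14 of 16 tested were called higher and none lower. FOS was at 144, 145 and 342 FPKM in Tibetan and 3.46, 6.87 and 7.11 FPKM in Wujin libraries (4.88 ± 0.34, scaled 5.596, limma adjusted p = 2.6e-06). ATF3, a stress-induced repressor, was at 86.5, 34.9 and 104 against 2.39, 4.49 and 3.18 FPKM (4.02 ± 0.37, scaled 4.71), and DUSP1, a phosphatase that ends MAP kinase signals, at 163, 282 and 274 against 29.7, 32.3 and 32.3 FPKM (2.85 ± 0.20, scaled 3.58). MYC (-0.27 ± 0.27, scaled 0.43) and FOSL1 (-0.34 ± 0.16, scaled 0.25) were called on neither scale with all libraries, and both were called higher under median-ratio scaling with 1 left out (limma adjusted p = 0.0023 without Tibetan 2 for MYC and limma adjusted p = 0.017 without Wujin 1 for FOSL1). The labels give no times for tissue handling, and its part in these levels was not tested.

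Hormone-responsive and breakdown genes were higher as well. Of 10 tested glucocorticoid- and thyroid-responsive genes, 8 were called higher and none lower on the deposited FPKM, and 9 higher under median-ratio scaling. The transcription factor ZBTB16 was at 47.01, 36.4 and 52.5 FPKM in Tibetan and 1.04, 0.684 and 0.704 FPKM in Wujin libraries (4.67 ± 0.16, scaled 5.29), and FKBP5, which binds the glucocorticoid receptor complex, at 69.4, 47.5 and 59.2 against 2.098, 3.45 and 3.204 FPKM (3.93 ± 0.24, scaled 4.62). The receptor itself, NR3C1, overlapped at 9.32, 6.81 and 9.18 against 6.28, 13.6 and 17.1 FPKM and was called on neither scale with all libraries (limma adjusted p = 0.0022 without Wujin 1). Of 20 muscle ubiquitin ligases and their regulators, 14 were called higher and 1 lower on the deposited FPKM, and 18 and 1 under median-ratio scaling. FBXO40, a ligase for the insulin signalling adaptor, was at 27.8, 31.5 and 47.4 against 0.133, 0.442 and 0.164 FPKM (4.85 ± 0.20, scaled 5.44). TRIM63, known as MuRF1, was even among libraries at 92.3, 97.7 and 81.1 against 9.36, 11.6 and 9.797 FPKM (3.02 ± 0.18, scaled 3.74), whereas FBXO32, known as atrogin-1, was highest in Tibetan 1 at 50.7, 21.7 and 14.9 against 3.05, 3.27 and 3.54 FPKM (2.63 ± 0.36, scaled 3.31).

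Chaperones depended on the scale, with 7 of 20 called higher and 5 lower on the deposited FPKM and 15 and 3 under median-ratio scaling. HSPA1L, whose sequence is close to that of its HSP70 neighbours, was at 735, 1765 and 835 FPKM in Tibetan and 42.5, 43.8 and 46.7 FPKM in Wujin libraries (4.504 ± 0.29, scaled 5.24). BAG3, a partner of HSP70 at the Z-disc, was at 79.8, 75.8 and 86.6 against 15.4, 17.05 and 15.1 FPKM (2.28 ± 0.11, scaled 2.9996). The chaperones of the endoplasmic reticulum HSP90B1 (33.9, 32.5 and 28.97 against 81.7, 92.4 and 104 FPKM, -1.51 ± 0.12, scaled -0.79) and HSPA5 (-1.12 ± 0.18; under median-ratio scaling limma adjusted p = 0.088 to 0.11 without Tibetan 1, Tibetan 3, Wujin a or Wujin b) fell. HSP90AA1 overlapped at 183, 195 and 216 against 223, 183 and 180.4 FPKM and was called higher under median-ratio scaling only (0.76).

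The Tibetan pig is native to high altitude, and a part of altitude in these levels was not tested. Oxygen genes were called in both directions on each scale. Of 18 tested, 7 were called higher and 6 lower on the deposited FPKM, and 8 and 2 under median-ratio scaling. Over all tested entries 13.8% were higher and 53.9% lower on the first scale, and 30.9% and 30.4% on the second. The list summed to 0.129% to 0.269% of all FPKM in Tibetan and 0.0713% to 0.0879% in Wujin. The sums were 797, 1589 and 1021 against 360, 476 and 474 FPKM. The genes named below made up the smaller part of the sum in every library, so the share is not read as a hypoxia response. Without Wujin 1, the lower calls under median-ratio scaling were 4 in place of 2. EPAS1, the hypoxia factor HIF-2alpha, was at 18.7, 15.8 and 25.6 FPKM in Tibetan and 7.71, 11.03 and 10.9 FPKM in Wujin libraries (0.94 ± 0.19, scaled 1.64, limma adjusted p = 0.0017). HIF1A overlapped at 6.73, 4.84 and 6.33 against 5.695, 12.8 and 14.8 FPKM, with a deposited change of -0.71 ± 0.28 (limma adjusted p = 0.049) and no call under median-ratio scaling (-0.05), where it was called lower with 1 library left out (limma adjusted p = 0.027 without Wujin 1). The deposited call was lost with single libraries left out (limma adjusted p = 0.066 to 0.17 without Tibetan 1, Tibetan 2, Tibetan 3, Wujin a or Wujin b). EGLN1, the oxygen sensor that marks both factors for destruction, was at 23.03, 19.3 and 28.3 against 9.89, 12.4 and 14.1 FPKM (0.899 ± 0.17, scaled 1.61). Among targets, VEGFA, the vessel growth factor, was at 109.7, 57.8 and 49.02 against 5.76, 9.43 and 8.15 FPKM (2.99 ± 0.28, scaled 3.71), while BNIP3L, which marks mitochondria for removal, was at 2.45, 2.53 and 2.57 against 9.24, 12.6 and 13.6 FPKM (-1.85 ± 0.14, scaled -1.26).

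The result for ribosomal protein genes depended on the scale. On the deposited FPKM 18 of 20 were called lower and none higher (median log2 change -1.08), while after median-ratio scaling the lower calls numbered 3 and the higher calls 2 (median -0.34). The 3 lower calls became 0 without Tibetan 1, Tibetan 3 or Wujin 1, 1 without Wujin b and 8 without Tibetan 2. RPS12 was at 1431, 1866 and 1026 FPKM in Tibetan and 4420.3, 3378 and 3718 FPKM in Wujin libraries (-1.45 ± 0.21, and -0.71 under median-ratio scaling, with limma adjusted p = 0.07 to 0.16 without Tibetan 1, Tibetan 3, Wujin 1 or Wujin b). RPLP1 overlapped at 1419, 1437 and 1284 against 1387, 1274 and 1431 FPKM. As a list these genes took 1.45% to 2.41% of all FPKM in Tibetan and 4.02% to 4.84% in Wujin.

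Other cell types of the tissue were followed through their markers. Vessel-lining markers gave 3 higher and 5 lower of 11 on the deposited FPKM, and 6 and 2 under median-ratio scaling. Without Tibetan 3, 1 was called higher on the deposited FPKM. PECAM1 was at 32.9, 25.5 and 31.9 FPKM in Tibetan and 34.9, 49.2 and 48.7 FPKM in Wujin libraries, and its lower call on the deposited FPKM was lost with 1 library left out (limma adjusted p = 0.057 to 0.06 without Wujin a or Wujin b). KDR, the main VEGF receptor, fell (4.35, 2.59 and 4.49 against 10.1, 20.4 and 22.3 FPKM, -1.91 ± 0.28, scaled -1.28). Their summed share was 0.0176% to 0.0214% in Tibetan and 0.0291% to 0.03197% in Wujin. Smooth muscle and pericyte markers gave 8 lower and 1 higher of 11 on the deposited FPKM, and 5 and 2 under median-ratio scaling. Their summed share was 0.404% to 0.542% in Tibetan and 0.311% to 0.411% in Wujin, with overlap. The list sums were 3059, 3203 and 2738 against 2074, 1799 and 1711 FPKM. Desmin (DES), given above as a muscle gene, made up most of the sum in every library. The share is therefore mainly that of DES and is not read as one of these cells. CSPG4, a pericyte proteoglycan, was at 0.969, 1.29 and 1.19 against 11.2, 15.04 and 15.6 FPKM (-2.79 ± 0.15, scaled -2.295).

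Erythroid markers went both ways. Of 7 tested, 3 were called higher and 4 lower on the deposited FPKM, and 3 and 2 under median-ratio scaling (median log2 change -0.56 and 0.17). Beta-globin (HBB) was at 191, 573 and 145 FPKM in Tibetan and 1459, 3809 and 1790.5 FPKM in Wujin libraries (-3.09 ± 0.53, scaled -2.35, limma adjusted p = 0.00069), and the erythroid haem enzyme ALAS2 at 0.967, 1.74 and 0.692 against 5.46, 13.6 and 6.299 FPKM (-2.08 ± 0.33, scaled -1.61). The embryonic globin HBZ was listed at 0 in all 3 Tibetan libraries and at 1.304, 3.39 and 1.604 FPKM in Wujin, below the level tested. The list summed to 0.0433% to 0.117% of all FPKM in Tibetan and 0.307% to 0.727% in Wujin. TFRC, ANK1 and FECH on this list, which muscle also makes, rose (2.39 ± 0.21, 1.88 ± 0.15 and 0.83 ± 0.27), the call for FECH being lost with single libraries left out (limma adjusted p = 0.054 to 0.076 without Tibetan 1 or Tibetan 3). Schwann and neuronal markers gave 4 lower and 1 higher of 7 on the deposited FPKM, and 4 and 2 under median-ratio scaling. ERBB3, a neuregulin receptor on this list, was at 0.213, 0.344 and 0.255 against 33.3, 36.3 and 28.9 FPKM (-4.73 ± 0.12, scaled -4.42). SNAP25 and ELAVL3 were at 0 in all 3 Tibetan libraries.

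Immune and fat markers were read from short lists. Macrophage markers summed to 0.00547% to 0.014003% of all FPKM in Tibetan and 0.00567% to 0.00899% in Wujin, with 2 called higher and 1 lower of 8 on the deposited FPKM, and 4 and 0 under median-ratio scaling. The deposited counts became 4 higher without Tibetan 3 and 3 lower without Wujin 1. Of leukocyte markers 3 of 15 matched were abundant enough to test, and of skin and epithelial markers 4 of 13. The adipocyte list summed to 0.119% to 0.136% in Tibetan and 0.0122% to 0.0189% in Wujin. It gave 3 higher and none lower of 5 on the deposited FPKM, and 4 higher and none lower under median-ratio scaling, led by complement factor D (CFD) at 271, 264 and 195 against 9.19, 13.3 and 11.4 FPKM (4.31 ± 0.25, scaled 5.04) and by GPD1 (3.17 ± 0.25, scaled 3.91), which muscle also makes. The fat-droplet gene PLIN1 was at 0.367, 1.74 and 2.18 against 0.0473, 1.38 and 0.499 FPKM, below the level tested. CFD and PLIN1 made up the smaller part of the Tibetan list sums of 756, 705 and 923 FPKM. The adipocyte share is therefore not read as one of fat cells. Of 3 tested genes on the cardiac list all rose, among them the stretch-response gene ANKRD1 (377, 76.2 and 293 against 8.99, 11.7 and 7.44 FPKM, 4.32 ± 0.50, scaled 5.04), while the heart-restricted TBX20 was at 0 in all 6 libraries and GATA4 at no more than 0.0285 FPKM.

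Plasma protein genes differed among the Tibetan libraries. Of 12 tested, 3 were called higher and 1 lower on the deposited FPKM, and 5 and 1 under median-ratio scaling. Leaving out Tibetan 3 raised the higher calls to 7 and 8 on these scales, and leaving out any other Tibetan or Wujin library lowered them to 1. Albumin (ALB) was at 25.7, 9.91 and 0.342 FPKM in Tibetan and 1.05, 0.996 and 0.428 FPKM in Wujin libraries, and APOC3 at 38.5, 12.1 and 0 FPKM in Tibetan and 0 in all 3 Wujin libraries. Calls for both moved with the library left out: ALB was higher on the deposited FPKM only then (limma adjusted p = 0.00011 without Tibetan 3) and lost its higher call under median-ratio scaling (limma adjusted p = 0.074 to 0.14 without Tibetan 1, Tibetan 2, Wujin 1, Wujin a or Wujin b), and APOC3 lost its higher call (limma adjusted p = 0.069 to 0.12 without Tibetan 1, Tibetan 2, Wujin 1, Wujin a or Wujin b). Tibetan 1 was the highest and Tibetan 3 the lowest Tibetan library for both. APOA1 was the 1 that fell (9.75, 13.9 and 13.1 against 65.3, 72.1 and 83.03 FPKM, limma adjusted p = 1.4e-06), and ITIH4 was above Wujin in every Tibetan library, at 13.2, 6.46 and 7.11 against 0.187, 0.115 and 0.137 FPKM (3.05 ± 0.23, scaled 3.59).

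**Figure D5:**
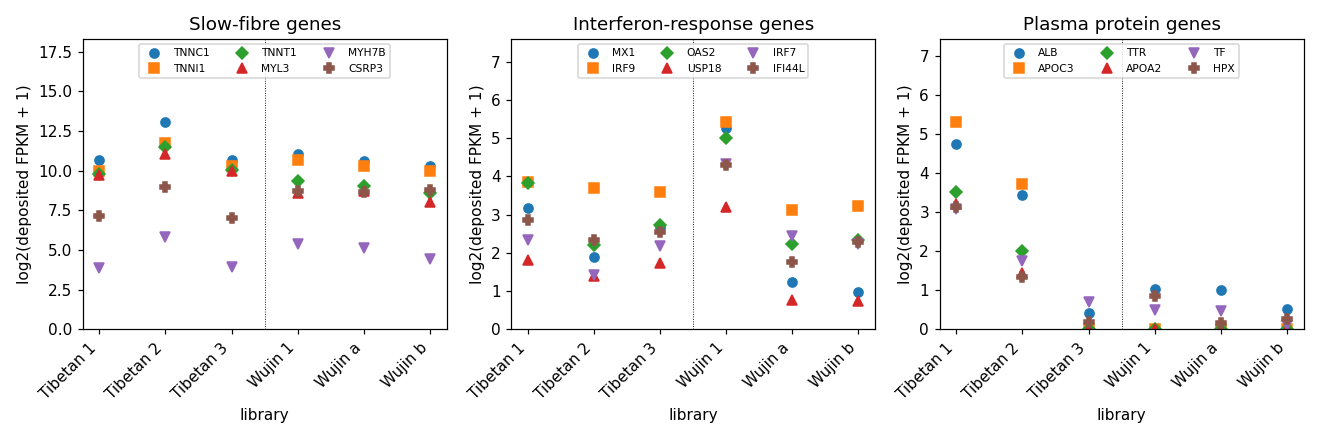
Levels of 6 slow-fibre genes (CSRP3 included), 6 interferon-response genes and 6 plasma protein genes in each Tibetan and Wujin library, as log2(deposited FPKM + 1). Tibetan 2 is highest for TNNC1, TNNI1, TNNT1, MYL3, MYH7B and CSRP3, Wujin 1 for the interferon-response genes and Tibetan 1 for the plasma protein genes.

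Position-specifying homeobox and T-box genes were mostly lower on the deposited FPKM, where 53.9% of all tested entries were lower. Under median-ratio scaling, where 30.4% of all entries were lower, 10 of the 23 were not called. Of 23 tested, 18 were called lower and 1 higher on the deposited FPKM, and 11 and 2 under median-ratio scaling, where 4 were higher without Tibetan 3. HOXA10 was listed at 0 in all 3 Tibetan libraries and was at 3.598, 5.399 and 3.85 FPKM in Wujin. HOXA5 was at 2.78, 3.78 and 3.35 against 12.6, 15.4 and 11.3 FPKM (-1.71 ± 0.17, scaled -1.09), and the connective tissue factor TBX18 at 0.555, 0.656 and 0.5404 against 2.17, 4.66 and 4.45 FPKM (-1.54 ± 0.24, scaled -1.17). HOXC6 was the 1 called higher on the deposited FPKM (11.3, 11.1 and 12.1 against 7.43, 6.92 and 8.67 FPKM, 0.53 ± 0.17; limma adjusted p = 0.056 to 0.068 without Tibetan 3 or Wujin a), and HOXD9 overlapped at 7.08, 3.51 and 5.07 against 5.58, 3.35 and 3.89 FPKM, its higher call under median-ratio scaling being lost with single libraries left out (limma adjusted p = 0.061 to 0.069 without Tibetan 1, Wujin a or Wujin b).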

How the data were processed

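The authors deposited 1 table of FPKM for 9 libraries of embryonic longissimus dorsi, 3 per breed. Reads were aligned with TopHat, per the submitters' processing notes; which version was used, how transcripts were quantified and on which genome build is not given in the sources used here. No count test was run. Relative depth was read from the most frequent ratio of FPKM between libraries among 1052 to 2009 low entries, with 70 to 268 entries at it. Columns were assigned by header; 2 Wujin columns share 1 header and are called a and b. Symbols were found for 11179 of 19643 entries (56.9%).

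Entries averaging 1 FPKM or more across all 9 libraries were fitted on log2(FPKM + 1) with limma 3.58.1 in R 4.3.3, with a trend and all 3 breeds sharing 1 spread. Changes are on that scale, which understates those of low genes, and are given ± SE. P-values are two-sided, Benjamini-Hochberg adjusted over all 13106 entries, with a threshold of 0.05. Median-ratio factors are the median, over entries above 0 in all 9 libraries, of each value over the entry's geometric mean across the 9. The script was tested on simulated data.

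The gene lists, the named genes and the comparison itself were chosen with earlier results of these data known. Named genes are the 15 highest and 15 lowest changes with a symbol, called on both scales, averaging 5 FPKM or more in the 6 libraries and with no overlap; a list of key genes; the 5 smallest p-values of each list; and list members by role. Any other gene was chosen after its values were seen. Alternatives were other scalings, pseudocounts and filters, a fit without the trend, a fit of 6 libraries and leaving out each library. Results for some genes, 1 of the 15 highest among them, are not reported here.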

Additional observations from a re-analysis of the deposited data

How the results depend on the processing

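The choice of scale moved the split between higher and lower calls. The 1809 higher calls became 4052 under median-ratio scaling and 3766 under quantile normalization, and the 7062 lower calls became 3978 and 4159. With equal FPKM totals 1423 were higher and 8108 lower. A mean of at least 5 FPKM left 5181 of the 8871 calls, 3907 of them lower, with fewer entries tested. A log2 change of at least 1 left 4788, of which 985 were higher and 3803 lower. Leaving out 1 library at a time gave 8024 to 9578 calls in all, 1592 to 1868 higher and 6342 to 7832 lower. Leaving out 1 Tibetan or Wujin library under median-ratio scaling, added after seeing the data, gave 7299 to 8253 calls, 3667 to 4128 higher and 3632 to 4125 lower. No paired analysis was possible because 2 Wujin columns carry the same header, so that only library 1 has a number that can be matched between the breeds. Some log2 changes took the opposite sign under an alternative, and the cause was not tested. Quantile normalization gave -0.013 for COX1, -0.42 for MYL11, -0.080 for TNNC2, 0.52 for ACVR2B, 0.50 for DLL4 and 0.39 for NOTCH4, and median-ratio scaling 0.19 for PECAM1, 0.45 for SRL and 0.58 for UNC45B. The change of ACTA1, not read as a result because of the 0 in Tibetan 2, ranged from -5.07 to 2.61 on the deposited FPKM and from -4.68 to 3.31 under median-ratio scaling with 1 library left out. The absolute depth behind low FPKM is unknown.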

Other observations

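Interferon-response genes set Wujin 1 apart from the other 5 libraries. Of 18 tested, 4 were called higher in Tibetan and 3 lower on the deposited FPKM, and 5 and 2 under median-ratio scaling. Without Wujin 1 the higher calls were 12 and 14 on these scales. On the deposited FPKM they were 2 without Tibetan 1 or Tibetan 3, and 0 without Tibetan 2, Wujin a or Wujin b. MX1, an antiviral GTPase, was at 8.09, 2.74 and 5.36 FPKM in Tibetan and 37.6, 1.34 and 0.961 FPKM in Wujin libraries. OAS2, a sensor of double-stranded RNA, was at 13.3, 3.61 and 5.59 and 30.8, 3.69 and 4.01 FPKM, and IRF7, the factor that drives interferon genes, at 4.02, 1.66 and 3.496 and 18.96, 4.38 and 3.67 FPKM. In all 3 genes Wujin 1 was highest and the Tibetan values overlapped the Wujin range. With 1 library left out, MX1 was called higher on the deposited FPKM (limma adjusted p = 0.0044 without Wujin 1), OAS2 higher under median-ratio scaling (limma adjusted p = 0.016 without Wujin 1) and IRF7 lower on the deposited FPKM (limma adjusted p = 0.037 without Wujin b).

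TGFB2, a TGF-beta ligand, was at 8.68, 5.63 and 427 FPKM in Tibetan and 347, 356 and 33.1 FPKM in Wujin libraries, so that Tibetan 3 lay above all Wujin libraries and Wujin b below Wujin 1 and a. It was called on neither scale with all libraries, and was lower on leaving out 1 of them (limma adjusted p = 0.0035 without Tibetan 3; under median-ratio scaling limma adjusted p = 0.012 without Tibetan 3).

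Some of the most abundant differing entries have no symbol, and those given here were picked with their values in view. ENSSSCG00000018006 was at 5972, 3229 and 8094 FPKM in Tibetan and 4.62, 14.7 and 16.6 FPKM in Wujin libraries, and ENSSSCG00000017581 at 971, 651 and 728 and 16398, 21186 and 19611 FPKM. The libraries of the breeds did not overlap in either entry.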
